A study of Mus musculus with 6 samples.

Results

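The 10 genes of heme and iron recycling, called members below, were compared between monocyte-derived Kupffer cells (mKC) and embryonic Kupffer cells (eKC) of the mouse liver. The members are Cd163 (ENSMUSG00000008845), Slc48a1 (ENSMUSG00000081534), Hmox1 (ENSMUSG00000005413), Blvra (ENSMUSG00000001999), Blvrb (ENSMUSG00000040466), Fth1 (ENSMUSG00000024661), Ftl1 (ENSMUSG00000050708), Slc40a1 (ENSMUSG00000025993), Slc11a1 (ENSMUSG00000026177) and Tfrc (ENSMUSG00000022797). They were chosen by Ensembl gene identifier for their known roles, with earlier results of these data already known. All 10 had a row among the 27835 features of the table. The mKC group held 3 arrays, of cells with GFP and without tdTomato, and the eKC group held 3 arrays, of cells with tdTomato and without GFP. Both populations were sorted as CD45-positive and CD11b-negative cells that carried a macrophage surface antigen, from the livers of the same 3 mice, with 50000 cells per sample, and 2 ng of total RNA was amplified for an Affymetrix Mouse Gene 2.0 ST array. All mice were C57Bl/6, carried the genotype written as CX3CR1-CreERT+/+ Stopfl/fl tdTomato, and had received a treatment abbreviated as sRBC. Both mKC and eKC share this treatment and no untreated mice were included, so a response to it could not be measured. In this genotype a tamoxifen-inducible Cre is driven from CX3CR1 and tdTomato lies behind a floxed stop. The labels do not say what GFP reports, and neither the age nor the sex of the mice is given in the sources used here. The gate stands in for origin, and the effects of origin and of the gated properties cannot be told apart.

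Kupffer cells line the liver sinusoids and, with the macrophages of the splenic red pulp, clear aged and damaged red cells and free hemoglobin. Heme taken up this way is carried to the cytosol and opened by heme oxygenase into biliverdin, carbon monoxide and iron. Biliverdin reductase A turns the pigment into bilirubin. The iron is held in ferritin or leaves the cell through ferroportin to be bound by plasma transferrin. Several of these steps are set after transcription: iron regulatory proteins bind the ferritin, ferroportin and transferrin receptor messages, and hepcidin removes ferroportin protein. The array reads only transcript level.

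The largest difference among the 10 members was at the entry of the pathway. Cd163, the scavenger receptor for hemoglobin and its complex with haptoglobin, was 3.37-fold lower in mKC, and Hmox1, the inducible heme oxygenase, was 1.59-fold lower. These 2 members fell and 0 rose (limma, adjusted p under 0.05), against 1.82% of all features called in either direction, 0.823% lower and 0.995% higher in mKC, and 2.83% of the features above the upper quartile of mean level. The other 8 members, among them both ferritin chains and the iron exporter Slc40a1, did not pass the threshold. In RNA from sorted pools, fewer cells expressing a gene and less of its RNA per cell cannot be told apart.

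The promoter of Cd163, the member with the largest difference, is shown here from RefSeq, as the 250 bases before and 50 bases after the start site on the plus strand of mouse build GRCm38.p6 at chr6:124304401-124304700. Capitals mark the match to ACGTG, the core bound by hypoxia-inducible factors.
Cd163 promoter: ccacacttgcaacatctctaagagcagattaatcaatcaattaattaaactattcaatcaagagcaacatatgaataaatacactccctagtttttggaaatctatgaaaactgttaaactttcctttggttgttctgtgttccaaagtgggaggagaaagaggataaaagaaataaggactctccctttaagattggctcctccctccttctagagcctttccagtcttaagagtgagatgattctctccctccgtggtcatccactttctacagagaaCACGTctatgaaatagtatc
The second sequence is a stretch of 30 bases of the Blvra promoter at chr2:127070598-127070627, plus strand, same build. It is shown because it holds the one match, in capitals, to TGACNNNGC, the core of the antioxidant response element through which NRF2 and the heme sensor BACH1 act on Hmox1.
Blvra promoter stretch: cacgggaattGCTCGGTCAaggctccgcct
The RefSeq table held 10 windows for 7 of the 10 members and none for Slc48a1, Hmox1 and Slc40a1. In these windows 5 motifs were searched on both strands, picked from a wider set after its matches were seen. TGACNNNGC matched in 1 window of 10, that of Blvra, from base -49 to base -41, and in 12.4% of all 32851 windows of 300 bases. ACGTG matched in 4 windows, 1 of Cd163, 1 of Blvrb and both of Tfrc, and in 19.6% of all windows. The windows of Tfrc overlap, and their matches are the same bases of the genome, so these are 3 sites. In Cd163 it lay on the reverse strand, from base 31 to base 35 after the start site. GAGGAA, the core bound by the macrophage factor PU.1, matched in 1 member window, of Slc11a1, and in 28.3% of all windows. TGAGTCA, bound by AP-1 factors, and CACGTG, an E-box, matched in 0 member windows and in 5.20% and 7.15% of all windows. CACGTG holds ACGTG within it, so their shares of all windows overlap, while no member match to ACGTG lay within a CACGTG. A match is a string of letters and not a bound site.

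The arrays were on a common scale, with medians from 5.21 to 5.28 on the log2 intensity scale and values from 2.09 to 14.2. The first principal component, with 45.2% of the variance, set all mKC arrays apart from all eKC arrays. Animal 2 stood apart on later components. Its mKC array scored 24.4 on the component with 15.6% of the variance, against -10.8 and -13.2 for the other mKC arrays, and its eKC array scored -25.6 on that with 17.2%, against 12.9 and 12.4 for the other eKC arrays. Values without animal 2 are therefore given beside the members that passed and those in which it moved the difference most. Of the 15 genes listed as Kupffer cell markers, 2 could be tied to a row, Cd163 and Slc40a1, and both were among the brightest features in mKC and in eKC. Cd163 was nonetheless 3.37-fold lower in mKC, while the difference in Slc40a1 did not pass the threshold. Of the 16 genes listed for red cells and their precursors, 1 could be tied to a row, Tfrc, whose values are given with the iron transport genes. The other genes of these lists and all those listed for monocytes and other liver cells have no symbol in the table, so their part in any difference was not tested.

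Of the 10 members, 9 lay high on the arrays. By mean level over the 6 arrays, Slc40a1 stood at the 99.96th percentile of all features, Slc11a1 at the 99.7th, Hmox1 at the 99.0th and Cd163 at the 98.3rd. Ftl1, Blvra, Slc48a1, Fth1 and Blvrb followed between the 98.1st and the 92.7th percentile, and Tfrc stood at the 68.7th. Probes differ in brightness, so these positions place each gene among the features of the array and do not rank the members by amount of RNA. No filter on low values was applied, and all 10 members were tested.

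**Figure D1:**
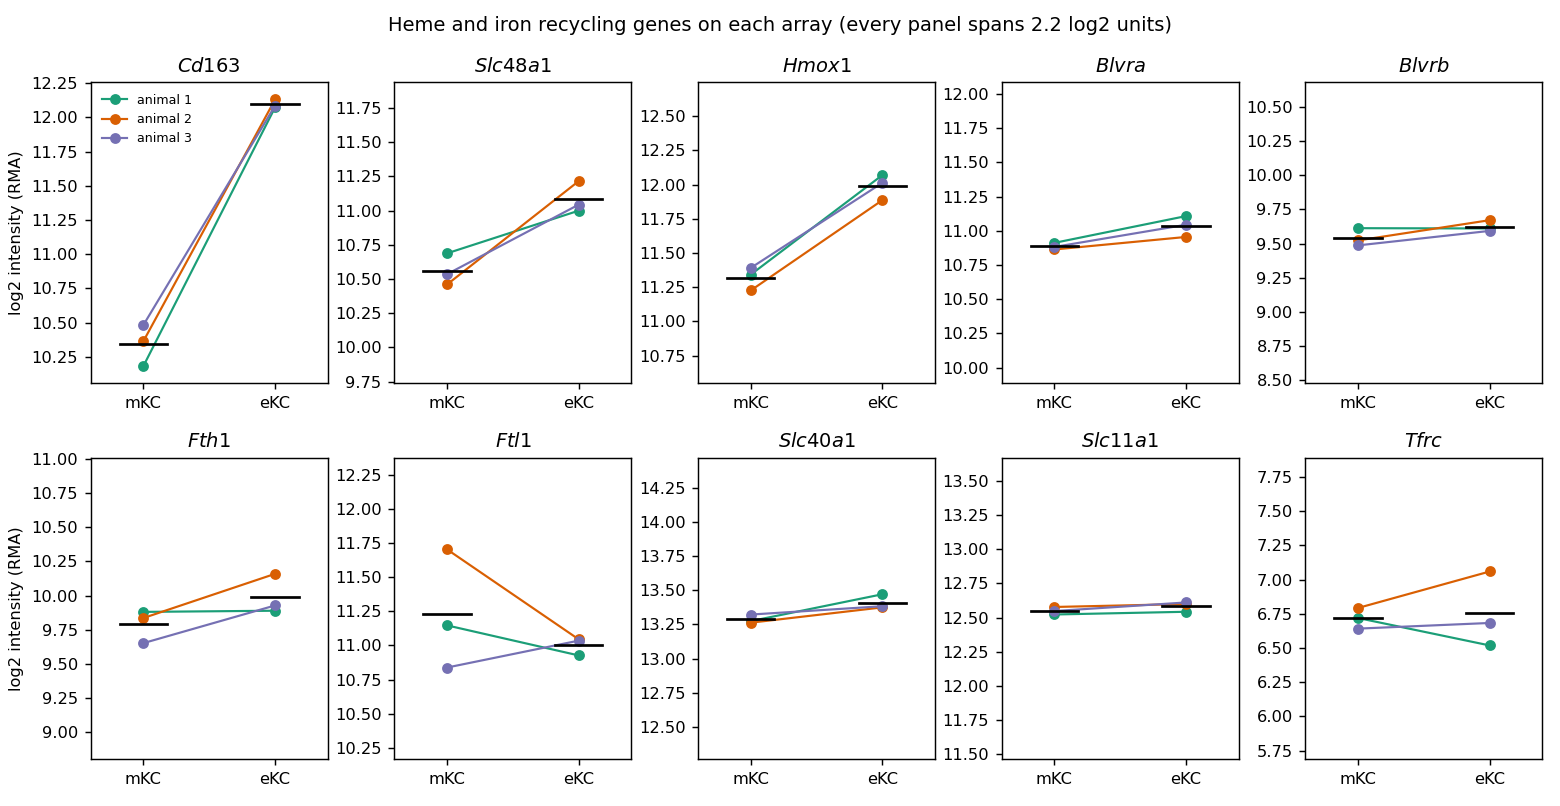
Normalised log2 intensity (vertical axis) of the 10 members on the 3 mKC arrays and the 3 eKC arrays, with a line joining the arrays of one animal and a black bar at each group mean; every panel spans the same height. Cd163, Hmox1 and Slc48a1 lie lower in mKC with a visible gap, Slc11a1 and Slc40a1 are nearly level, and Ftl1 in mKC and Tfrc in eKC spread most between animals.

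Heme uptake is represented by Cd163 and Slc48a1. Cd163 measured 10.18, 10.36 and 10.48 (log2 intensity) in mKC of animals 1, 2 and 3, against 12.07, 12.13 and 12.09 in eKC. The groups were separated by a gap of 1.59, several times the range within either group, and the mKC arrays spread more (SD 0.151) than the eKC arrays (SD 0.0302, n = 3 each). The mean was 10.34 in mKC and 12.10 in eKC, a difference of -1.75 ± 0.101 (SE), with a 95% confidence interval from -2.00 to -1.51 (limma, adjusted p = 0.0010). This is 3.37-fold lower in mKC. In all, 45 of 27835 features (0.162%), Cd163 included, had a difference this low or lower. The difference was -1.89, -1.77 and -1.60 in animals 1, 2 and 3, and without animal 2 it was -1.75 (limma, adjusted p = 0.0092).

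Even in mKC, Cd163 remained a bright feature. It lay at or above the 95.4th percentile of each array, with the highest position, the 99.4th, in eKC. The transcript was thus lower in mKC and still brighter than most features there.

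Slc48a1 encodes HRG1, which carries heme out of the phagolysosome into the cytosol. It measured 10.69, 10.46 and 10.54 in mKC of animals 1, 2 and 3, against 11.00, 11.22 and 11.04 in eKC. The groups did not overlap and stood 0.31 apart. The difference was -0.53 ± 0.115 (SE), or 1.44-fold, with a 95% confidence interval from -0.80 to -0.25, and it did not pass the threshold (limma, adjusted p = 0.117, unadjusted p = 0.0035). It varied between animals, at -0.31, -0.76 and -0.51 in animals 1, 2 and 3. With animal 1, 2 or 3 left out it was -0.63, -0.41 and -0.53 (limma, adjusted p = 0.167, 0.265 and 0.353). Without pairing the arrays by animal it passed (limma, adjusted p = 0.040). Slc48a1 is therefore reported as lower in mKC in all 3 animals without passing the threshold in the paired fit.

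**Figure D2:**
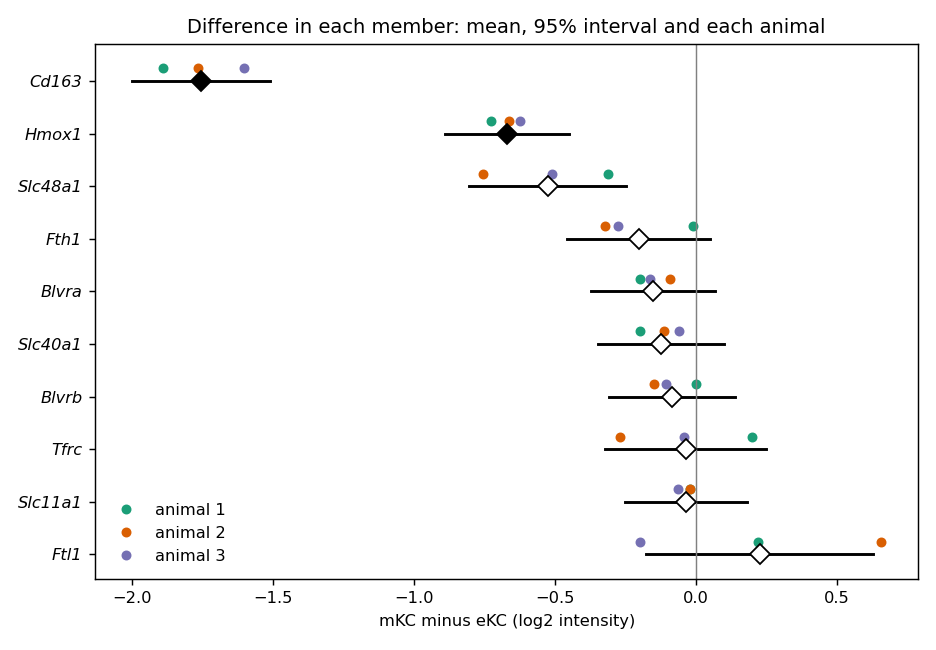
Difference between mKC and eKC in log2 intensity (horizontal axis) for each member, with the mean of 3 animals as a diamond (filled where the adjusted p was under 0.05), its 95% confidence interval as a line and each animal as a coloured point. The intervals of Cd163, Hmox1 and Slc48a1 lie wholly below 0 and those of the other 7 members include 0.

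Heme breakdown is represented by Hmox1, Blvra and Blvrb. Hmox1 measured 11.34, 11.23 and 11.39 in mKC of animals 1, 2 and 3, against 12.07, 11.89 and 12.01 in eKC. The groups stood 0.50 apart, more than the range of 0.165 within mKC or 0.183 within eKC. The difference was -0.67 ± 0.091 (SE), with a 95% confidence interval from -0.89 to -0.45, or 1.37-fold to 1.85-fold lower in mKC (limma, adjusted p = 0.024). It was nearly the same in each animal, at -0.73, -0.66 and -0.62 in animals 1, 2 and 3. Features with a difference this low or lower numbered 258 (0.927%), Hmox1 included.

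The call of Hmox1 needed all 3 animals. With animal 1, 2 or 3 left out the difference was -0.64, -0.68 and -0.69, and the adjusted p was 0.133, 0.078 and 0.146 (limma). A fit on 2 animals has 1 residual degree of freedom, against 2 with all animals. Cd163 passed in all 3 of these fits.

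Blvra encodes biliverdin reductase A, which makes bilirubin from the biliverdin that heme oxygenase releases. It measured 10.91, 10.86 and 10.88 in mKC, against 11.11, 10.96 and 11.04 in eKC. The groups did not overlap, but the gap was 0.043, smaller than the range of 0.153 in eKC. The difference of -0.15 ± 0.091 (SE) did not pass (limma, adjusted p = 0.623), and its 95% confidence interval runs from -0.37 to 0.070.

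Blvrb encodes biliverdin reductase B, also known as flavin reductase. It measured 9.61, 9.52 and 9.49 in mKC and 9.61, 9.67 and 9.59 in eKC, so the groups overlapped. The difference was -0.084 ± 0.092 (SE) with an interval from -0.31 to 0.14 (limma, adjusted p = 0.823). It was 0.0021, -0.15 and -0.11 in animals 1, 2 and 3. With animal 1, 2 or 3 left out it was -0.13, -0.052 and -0.073. A fall the size of that of Hmox1 lies outside the interval of both reductases, although the differences between genes were not themselves tested.

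Iron storage is represented by the chains of ferritin. Fth1 encodes the heavy chain, which oxidises iron for storage, and measured 9.88, 9.84 and 9.65 in mKC, against 9.89, 10.16 and 9.93 in eKC. The groups stood apart by only 0.0085, and the eKC array of animal 2 was the highest. The difference was -0.20 ± 0.105 (SE), with an interval from -0.46 to 0.052 (limma, adjusted p = 0.551). It was -0.0085, -0.32 and -0.28 in animals 1, 2 and 3. With animal 1, 2 or 3 left out it was -0.30, -0.14 and -0.17.

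Ftl1 encodes the light chain, which helps the iron core form. It measured 11.15, 11.70 and 10.84 in mKC, against 10.93, 11.04 and 11.04 in eKC. The mKC arrays lay above and below the eKC arrays, and their SD of 0.438 was the highest of any member in either group, against 0.0654 in eKC. The difference, 0.23 ± 0.166 (SE), was the only positive one among the members and did not pass (limma, adjusted p = 0.703, interval from -0.18 to 0.63). It was 0.22, 0.66 and -0.20 in animals 1, 2 and 3. With animal 1, 2 or 3 left out it was 0.23, 0.011 and 0.44, so it depended on animal 3 as well as on animal 2. Mouse ferritin genes have processed pseudogenes, of which the RefSeq gene table names 2 for the heavy chain and 3 for the light chain. How far the probes of Fth1 and Ftl1 also read such copies was not tested.

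Iron transport is represented by Slc40a1, Slc11a1 and Tfrc. Slc40a1 encodes ferroportin, the iron exporter of the cell, and measured 13.27, 13.26 and 13.32 in mKC, against 13.47, 13.37 and 13.38 in eKC. The groups did not overlap, with a gap of 0.053. The difference of -0.12 ± 0.092 (SE) did not pass (limma, adjusted p = 0.709), and the interval from -0.35 to 0.099 leaves out a fall as large as that of Hmox1. Slc40a1 stood near the top of every array, at the 99.94th percentile or above. Intensity can level off for the brightest probes, and whether it did here was not tested.

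Slc11a1 encodes NRAMP1, a metal transporter of the phagolysosome membrane, of which C57BL/6 mice carry a loss-of-function allele. Its difference was the smallest in size of the 10 members. It measured 12.52, 12.58 and 12.55 in mKC, against 12.54, 12.60 and 12.61 in eKC, so the groups overlapped. The difference was -0.035 ± 0.089 (SE), with an interval from -0.25 to 0.18 (limma, adjusted p = 0.934).

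Tfrc encodes transferrin receptor 1, through which cells take up iron bound to plasma transferrin. It measured 6.72, 6.79 and 6.64 in mKC, against 6.52, 7.06 and 6.68 in eKC. The groups overlapped, and eKC spread more (SD 0.277) than mKC (SD 0.0755). The difference was -0.036 ± 0.117 (SE), with an interval from -0.32 to 0.25 (limma, adjusted p = 0.952). It was 0.20, -0.27 and -0.041 in animals 1, 2 and 3. With animal 1, 2 or 3 left out it was -0.15, 0.080 and -0.033, so Tfrc has no settled direction.

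Across the list, 9 of 10 members had a difference below 0, and the median was -0.14, against 52.2% of all features and a median of -0.0079. Lower values in mKC in all 3 animals were found in 7 members and in 16.9% of all features. In 6 members the mKC arrays all lay below the eKC arrays, as in 8.82% of all features, and in 0 members did they all lie above, as in 8.91% (17.7% in either direction). Of those 6 gaps, 3 (Blvra, Fth1 and Slc40a1) were at most 0.053, and their differences did not pass. By role, 1 of 2 heme uptake genes and 1 of 3 heme breakdown genes passed the threshold, both lower in mKC (limma). Of the storage genes 0 of 2 passed, and of the iron transport genes 0 of 3. An unadjusted p under 0.05 was reached by 3 members, Cd163, Hmox1 and Slc48a1, all lower in mKC, where 11.7% of all features reached it. With 3 animals the exact two-sided sign-flip test cannot go below 0.25 for any single member. That value was given by the test for all 7 members lower in mKC in all 3 animals, Cd163 and Hmox1 among them.

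**Figure D3:**
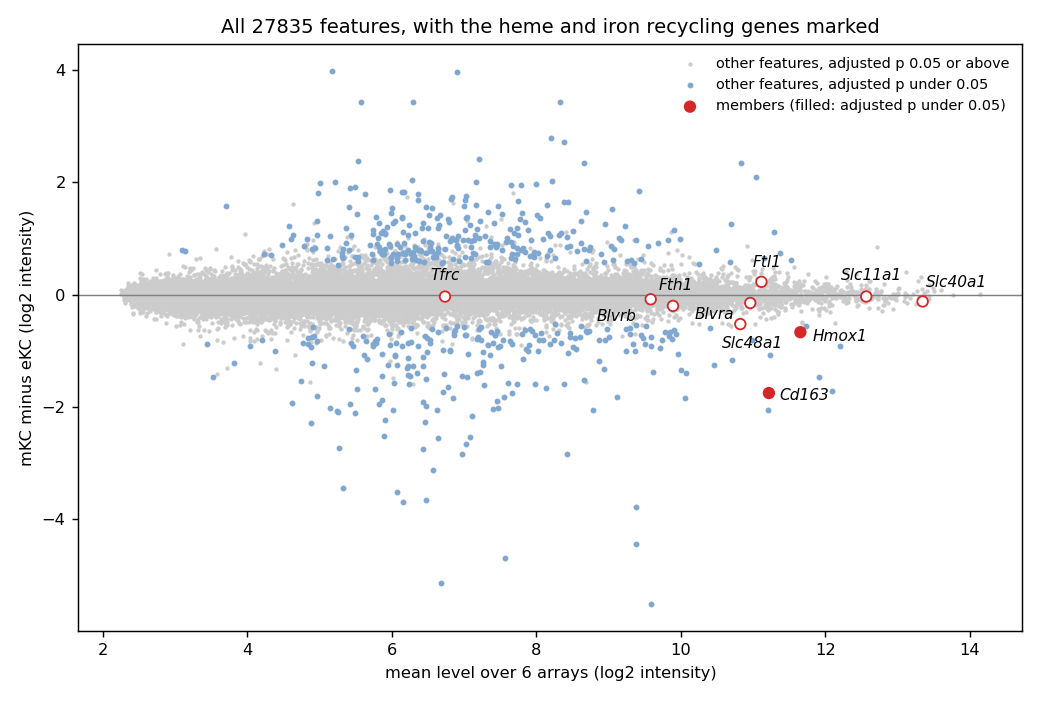
Difference between mKC and eKC (vertical axis, log2 intensity) against the mean level over 6 arrays (horizontal axis, log2 intensity) for all 27835 features, with the members as red circles, filled for Cd163 and Hmox1, which passed the threshold. Apart from Tfrc, the members lie in the bright part of the plot, where Cd163 is among the lower points, and most members lie close to 0.

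The members also differed in which arrays were high. The eKC array of animal 2 gave the highest eKC value for 6 members (Cd163, Slc48a1, Blvrb, Fth1, Ftl1 and Tfrc) and the lowest for 3 (Hmox1, Blvra and Slc40a1). The mKC array of animal 2 gave the highest mKC value for 3 members (Ftl1, Slc11a1 and Tfrc) and the lowest for 4 (Slc48a1, Hmox1, Blvra and Slc40a1). Thus Hmox1, Blvra and Slc40a1 were each lowest in animal 2 within both populations. In the same way Cd163 and Slc11a1 were each lowest in animal 1 within both populations, and Blvrb in animal 3. This array order rests on 3 animals and carries no test.

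Likeness to Cd163 was measured as Pearson's r over the 6 arrays, which come from 3 animals, and it mainly reflects the gap between mKC and eKC. Among the members it was closest for Hmox1 (r = 0.971), Slc48a1 (r = 0.924) and Slc40a1 (r = 0.872). For Hmox1 the closest members after Cd163 were Slc40a1 (r = 0.930) and Blvra (r = 0.923). Among all features, 246 had r of at least 0.95 with Cd163. The closest were ENSMUSG00000025453 and ENSMUSG00000033788, both with r = 0.999. ENSMUSG00000025453 averaged 8.87 ± 0.0652 in mKC and 9.87 ± 0.00658 in eKC (log2, SD, n = 3 each), a difference of -1.01 (limma, adjusted p = 0.0056). ENSMUSG00000033788 averaged 9.20 ± 0.0879 in mKC and 9.96 ± 0.0354 in eKC, a difference of -0.76 (limma, adjusted p = 0.016). The sources used here give no symbol for these features.

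**Figure D4:**
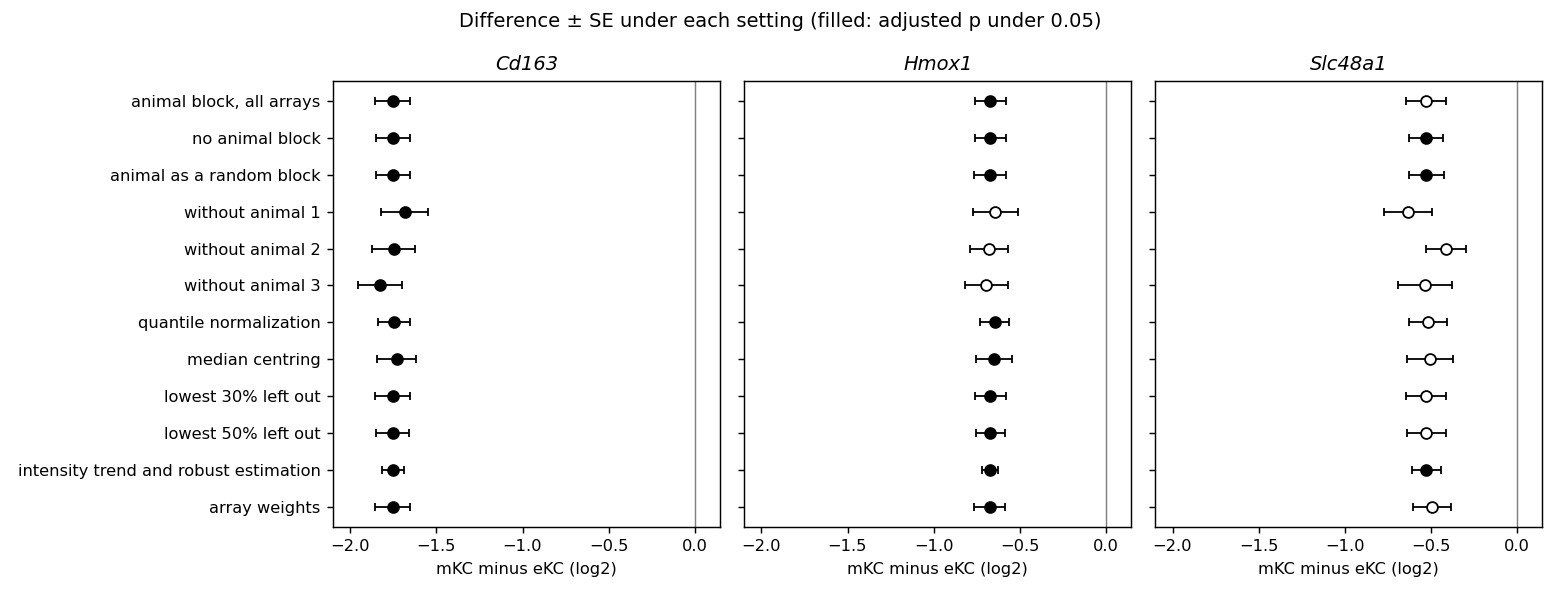
Difference between mKC and eKC ± SE (horizontal axis, log2 intensity) for Cd163, Hmox1 and Slc48a1 under the paired fit and its 11 alternatives, filled where the adjusted p was under 0.05. Cd163 is filled in every row, Hmox1 is open when any one animal is left out, and Slc48a1 is filled in 3 alternatives.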

How the data were processed

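RNA from 3 mKC and 3 eKC samples was hybridised to single-colour arrays. The deposited values are 1 per gene and array, made by the authors with RMA per the submitters' processing notes, and were taken as log2 intensities from their range; the sources used here state neither the log base nor the software version or probe definition. Per the labels, the samples are pairs from the same animals; deviations of an animal's arrays from their group means correlated at -0.032, 0.026 and -0.019. The difference was fitted over all 27835 features with limma 3.58.1 in R 4.3.3 (lmFit, eBayes), as mKC minus eKC with the animal as a block, two-sided, and p-values were Benjamini-Hochberg adjusted over all features (threshold 0.05). In simulations of this comparison over 27835 features, 2.60%, 77.4% and 98.4% of changes of 0.5, 1 and 2 were recovered, and 5.37% of calls were false. Each simulation changed a small share of the features and drew independent normal noise, so these rates need not hold for the data. The number of animals limits the precision.

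The members and lists were chosen with earlier results of these data known. All 10 members are named whatever their values. Symbols come from the list of members; the reference table has an Ensembl identifier for 0 of its 49997 genes, so the other 97 of the 107 genes of the pathway lists could not be matched. The marker lists met the same limit: of 118 genes, 3 were members, 2 of them listed for Kupffer cells and 1, Tfrc, for red cell precursors. For the likeness rule, features without a symbol are given for Cd163 only. Alternatives were the fit without the block, a random block, each animal left out, centring on array medians, quantile normalization, dropping the dimmest 30% or 50% of features, array weights, robust estimation with an intensity trend and an adjusted p under 0.1.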

Additional observations from a re-analysis of the deposited data

How the results depend on the processing

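Of 110 refits, each of 1 member under 1 alternative, 102 kept the direction and the side of the threshold, 3 lost the call (Hmox1 with an animal left out), 3 gained it (Slc48a1) and 2 reversed (Tfrc). Cd163 passed in all 11 alternatives, with differences from -1.83 to -1.69 and adjusted p-values from 1.4e-05 to 0.016 (limma). Hmox1 ranged from -0.69 to -0.64, with adjusted p from 0.00036 to 0.146. Slc48a1 passed without the replicate block (0.040), with a random block (0.044) and with an intensity trend and robust estimation together (0.019), and its adjusted p was otherwise up to 0.353. The number of members past the threshold was 3 without the replicate block, with a random block and with the trend and robust estimation together, and 1 with any animal left out, all of them lower in mKC, against 2 in the paired fit. All features past the threshold numbered 506, 608 without the block, and 171 to 369 with an animal left out, which leaves 1 residual degree of freedom. Tfrc, not called in any fit, ranged from -0.15 to 0.080 with an animal left out and was 0.00029 with array weights. The alternatives for the pathway lists were not run, because the other genes have no symbol. Signal over background is not in the values, so no limit of detection could be set.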
